A study of Danio rerio with 20 samples.

Results

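The transcriptome of sorted oligodendrocyte precursor cells (OPCs) was described in the control libraries of a zebrafish (Danio rerio) study of adaptive and regenerative myelination. The series holds 20 libraries of 3' RNA sequencing in 4 groups. One experiment set 4-aminopyridine (4AP), a potassium channel blocker, against a 4AP control, and the other set capsaicin-TRPV1-induced demyelination against a demyelination control, with 16 h as the stated treatment time. The profile uses 9 of the 20 libraries, 4AP control 1 to 5 and demyelination control 2 to 5. Demyelination control 1 was left out because it held 1180 reads assigned to genes, under the limit of 2000 reads, while the shallowest library kept held 109946. What the control fish received, their age, the transgenes they carried (TRPV1 included), the sort gate and the number of fish behind a library are not given in the sources used here. Nothing states that the libraries came from separate pools of fish, so the spread between them may be partly technical.

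OPCs are the proliferating glial progenitors from which myelinating oligodendrocytes arise. They carry the transcription factors Olig2 and Sox10 and the growth factor receptor Pdgfra, and they exit the cell cycle, switch on Myrf and then build myelin from proteins such as myelin basic protein. In zebrafish they populate the brain and spinal cord of the larva, and part of them persist as precursors next to the oligodendrocytes they produce.

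Genes were ranked within each library by CPM, the reads of a gene scaled to a library sum of 1000000 reads, once on total gene reads, which are exon plus intron reads, and once on exon reads. The values are described, and the control groups were not tested against each other. For some genes and lists the ranges of the control groups are said not to overlap. The share of all genes without overlap was not counted, so this does not set those genes apart. The library kit reads the 3' end of transcripts, so the main values were not divided by gene length. Total gene reads were 109946 to 897620 per library, with the highest in 4AP control 5, and 20.5% to 40.4% of them lay in introns, with the lowest share in 4AP control 5. Between 9750 and 11048 genes had a read in 4AP control 1 to 4, and 20281 had one in 4AP control 5. In demyelination control 2 to 5 it was 12644 to 17090 genes. Across libraries, 59 to 167 genes held 50% of the reads of a library. The deposited file names carry 3 prefixes of unstated meaning: P1 for 4AP control 1 to 4, P2 for 4AP control 5 and P3 for all demyelination controls. The demyelination control group and its prefix cannot be told apart. A gene with 0 reads may hold up to 3 reads' worth, which is 3.34 CPM in the deepest library and 27.3 CPM in the shallowest, and this limit covers counting error only.

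The lineage markers stood at low to moderate levels, with no read of sox10 in 4AP control 1, and were not among the abundant genes. The transcription factor gene olig2 had 52.5, 77.8, 137, 159 and 73.5 CPM in 4AP control 1 to 5 and 81.3, 107, 118 and 132 CPM in demyelination control 2 to 5, a mean of 104 ± 35.2 CPM (SD, n = 9). The receptor gene pdgfra had 105, 115, 89.6, 85.8 and 154 CPM in the 4AP controls and 110, 124, 109 and 79.4 CPM in the demyelination controls, a mean of 108 ± 22.5 CPM (SD, n = 9). Both genes had reads in every library, and the ranges of the control groups overlapped for both. The median rank in a library was 949 for olig2 and 870 for pdgfra.

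The transcription factor gene sox10 was close to the counting limit in several libraries. It had 0, 6.77, 4.72, 18.4 and 43.4 CPM in 4AP control 1 to 5 and 88.3, 33.0, 18.2 and 52.9 CPM in demyelination control 2 to 5. No read was seen in 4AP control 1, which allows up to 9.27 CPM. The myelin basic protein gene mbpa, which marks cells that make myelin, had 37.1, 64.3, 84.9, 123 and 118 CPM in the 4AP controls and 413, 710, 218 and 251 CPM in the demyelination controls. For mbpa the control groups did not overlap, and every demyelination control lay above every 4AP control. The level of mbpa in CPM of total gene reads was above that of pdgfra in 5 of 9 libraries, 4AP control 4 and the 4 demyelination controls, and above that of sox10 in 9 of 9. By exon reads the order of pdgfra and olig2 changed, with means of 163.8 CPM for olig2 and 156 CPM for pdgfra. Per kilobase of exon the means were 148 for olig2, 194 for mbpa, 37.9 for pdgfra and 21.1 for sox10. These stand on a CPM scale of exon reads per kilobase. The order of pdgfra and olig2 thus depends on the reads counted, and their distance on the scale. In bulk libraries, fewer cells of a type and less RNA per cell cannot be told apart.

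**Figure D1:**
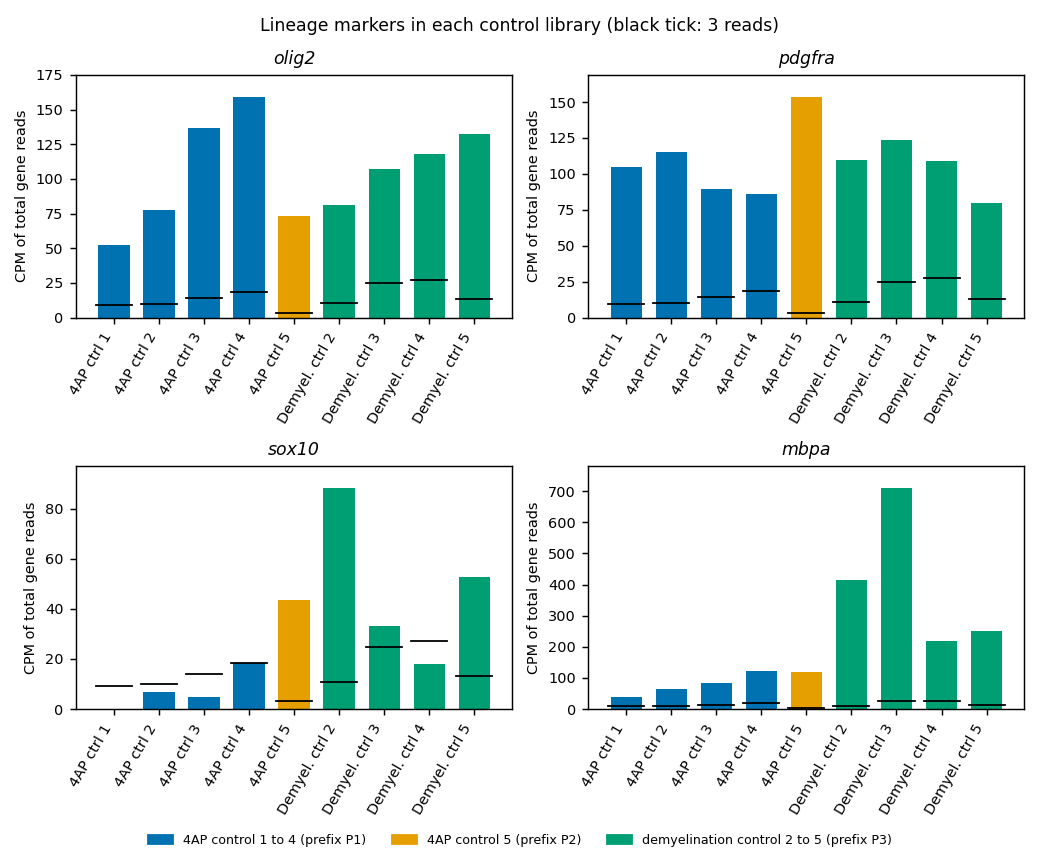
Bars give the CPM of total gene reads (linear axis from 0) of olig2, pdgfra, sox10 and mbpa in each of the 9 control libraries, coloured by file prefix, and black ticks mark the CPM of 3 reads in that library. The bars of olig2 and pdgfra stand above the ticks in all libraries, sox10 lies below the tick in 4AP control 1 to 3 and demyelination control 4 and at it in 4AP control 4, and mbpa reaches 218 to 710 CPM in the demyelination controls against 37.1 to 123 CPM in the 4AP controls.

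By total gene reads, 44 of 23672 genes with a read ranked in the top 100 of all 9 libraries, a background of 0.186%. By exon reads, 54 of 18925 did, a background of 0.285%. The rankings shared 35 genes. These covered mitochondrial transcripts, ribosomal protein genes, 4 copies of hsp70, malat1, digestive enzyme genes, a keratin, a collagen and beta-actin. The 44 genes held 36.5% to 44.0% of the total gene reads of a library. At the edge of the set, the lowest rank of the prothymosin gene ptmab in any library was 99, just inside, and that of the ribosomal protein gene rpl35a was 103, just outside. None of the 22 genes of the OPC identity list, and none of 13 committed and 20 mature myelin genes, was in the set by total gene reads. At the 0.186% of all genes, lists of this length would hold few or none.

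The most abundant transcript in most libraries was a mitochondrial ribosomal RNA, listed as NC_002333.4 and lying at positions 2043 to 3725 of the mitochondrial genome (GRCz11). It had 96132, 34935, 39252, 61174 and 170076 CPM in 4AP control 1 to 5 and 126174, 113514, 148118 and 147557 CPM in demyelination control 2 to 5. It ranked first in every library by exon reads and no lower than 4 by total gene reads. The 2 mitochondrial ribosomal RNA genes together held 3.56% to 17.2% of the total gene reads, low in 4AP control 2 and 3 and high in 4AP control 5.

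The second gene by exon reads in every library was malat1, a long non-coding RNA that stays in the nucleus, listed as CR383676.2 and placed on chromosome 14 from 45631236 to 45638712 on the minus strand (GRCz11). It had 22281, 18098, 25789, 22040 and 47687 CPM of total gene reads in 4AP control 1 to 5 and 47437, 32742, 30752 and 31880 CPM in demyelination control 2 to 5. All 9 values were within 2.63-fold of each other. A second entry, CR383676.3, lies on the opposite strand within this locus from 45636960 to 45638392 and had 2432 to 13387 CPM. Of its reads 95.1% were counted in its intron. The strand used in counting is not given in the sources used here, so reads of the overlapping pair cannot be told apart.

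**Figure D2:**
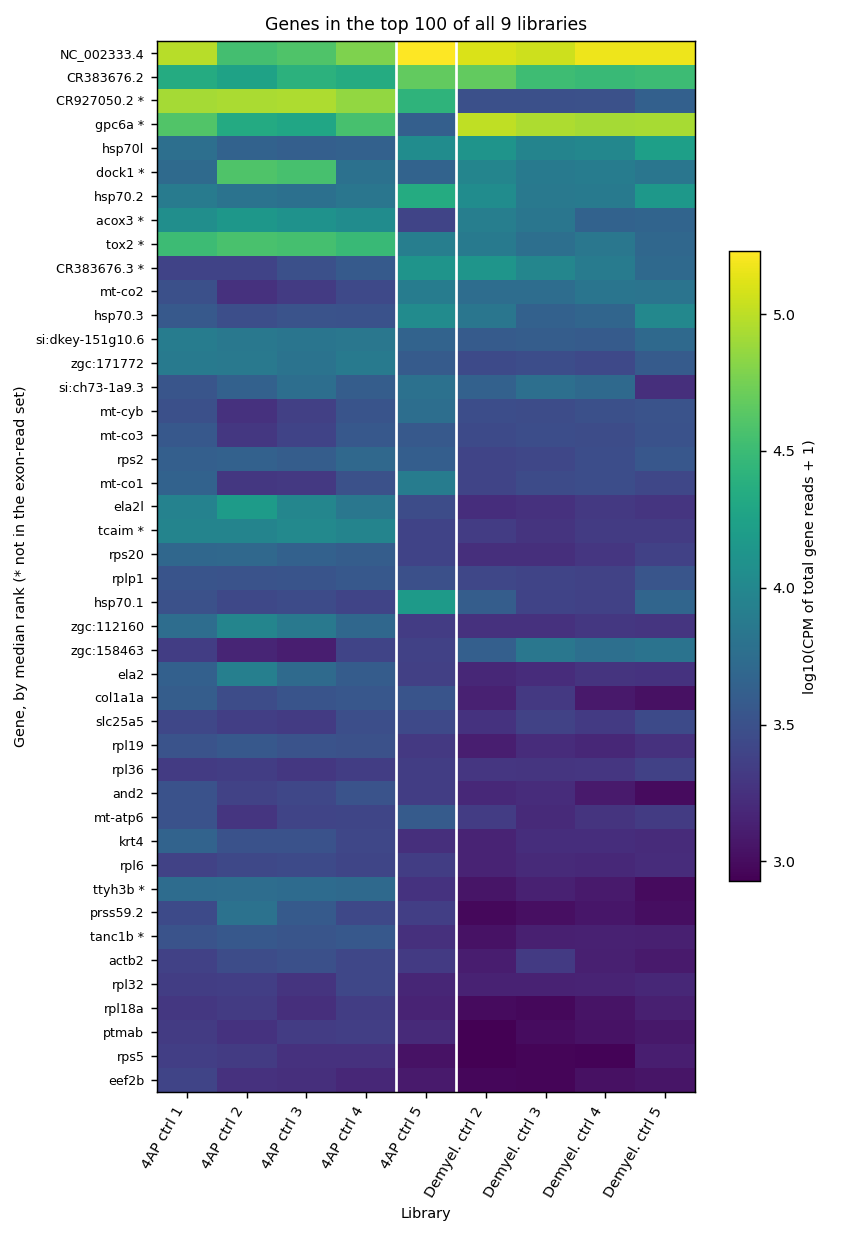
Colour gives log10(CPM of total gene reads + 1) of the 44 genes in the top 100 of all 9 libraries, ordered by median rank (rows), in each library (columns), with white lines between file prefixes. Asterisks mark the 9 genes outside the exon-read set. CR927050.2 and gpc6a show the widest change of colour between prefixes, and ribosomal protein genes such as rpl36 the most even rows.

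Among the genes at the head of the ranking by total reads, 9 had most of their reads in introns and were not in the top 100 of all libraries by exon reads. They were CR383676.3, CR927050.2, acox3, dock1, gpc6a, tanc1b, tcaim, tox2 and ttyh3b, and 95.1% to 100% of the reads of each lay in introns. The glypican gene gpc6a, on chromosome 1 from 2712956 to 3036019, had 39988, 21546, 19659, 36523 and 4255 CPM in 4AP control 1 to 5 and 103037, 88685, 83396 and 85508 CPM in demyelination control 2 to 5. Its exon reads gave 0 CPM in 7 of 9 libraries, and its median rank fell from 3 to 6974. The long non-coding entry CR927050.2, on chromosome 4 from 62986341 to 62996662, ran the other way, with 83431, 86186, 88346, 71434 and 26597 CPM in the 4AP controls and 3099, 3064, 3183 and 4305 CPM in the demyelination controls. Neither gene overlapped between the control groups, and how common this is among all genes was not counted.

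The other genes of this kind varied less between libraries, from 3.33-fold for tanc1b to 8.66-fold for dock1. The guanine nucleotide exchange factor gene dock1 had 39570 and 36659 CPM in 4AP control 2 and 3 and 4568 to 9485 CPM in the other libraries, and 17.7% of its reads were unique. The HMG-box gene tox2 had 30608 to 37360 CPM in 4AP control 1 to 4 and 4927 to 8187 CPM elsewhere. Together gpc6a, CR927050.2, tox2, dock1, acox3 and tcaim, a set of 6 genes put together after their values were seen, held 4.86% to 20.8% of total gene reads but 0.00188% to 0.0101% of exon reads. 4AP control 5 was lowest in this share and in intron reads as a whole. Which transcripts these intron reads stem from was not tested.

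**Figure D3:**
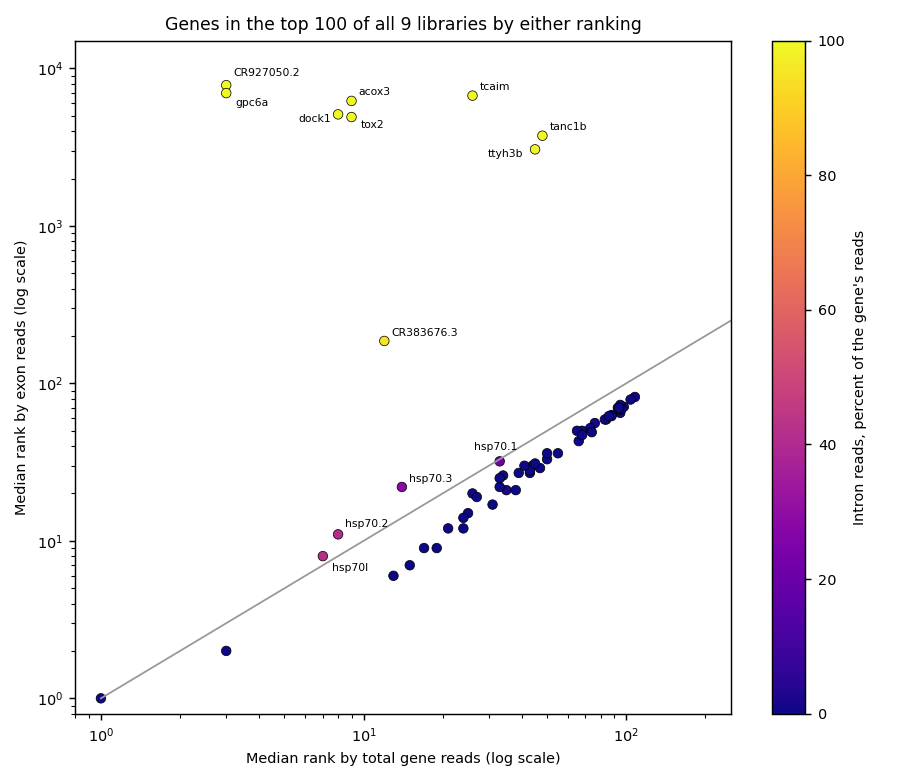
Each point is 1 of the 63 genes in the top 100 of all 9 libraries by total gene reads or by exon reads, placed by its median rank in both rankings (log axes) and coloured by the percent of its reads in introns. The line marks equal ranks. Most genes lie just below the line, hsp70l, hsp70.2 and hsp70.3 lie above it, and 8 genes with nearly all reads in introns stand far above it, past rank 1000 by exon reads.

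Several entries with systematic names stood near the head of both rankings. The protein-coding si:dkey-151g10.6, on chromosome 23 from 25305431 to 25306603, had 6635 to 7784 CPM in 4AP control 1 to 4 and 3852 to 5160 CPM elsewhere. The protein-coding zgc:171772, on chromosome 11, had 6328 to 7575 CPM in 4AP control 1 to 4 and 2738 to 3917 CPM elsewhere. Both were thus lower in 4AP control 5 and the demyelination controls than in any other library. The entry si:ch73-1a9.3, on chromosome 10 from 39084354 to 39087854, is hmgn1b in the names table, a gene of the nucleosome-binding HMGN family. It had 3458, 4405, 5725, 4057 and 6138 CPM in 4AP control 1 to 5 and 4417, 5807, 5230 and 1716 CPM in demyelination control 2 to 5, and it lies inside the gene igsf5a. Its low value was that of demyelination control 5, and the groups overlapped. The entry zgc:158463, on chromosome 5, had 1320 to 2513 CPM in the 4AP controls and 4220 to 6856 CPM in the demyelination controls, and these ranges did not overlap. It is protein-coding in the deposited tables and of the class rRNA in RefSeq.

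The ranking by exon reads admitted 19 genes that the ranking by total gene reads left outside the top 100 of some library. Of these 12 encode ribosomal proteins, among them rpl7a, rps13 and rps18. The others were the muscle genes pvalb1 and mylpfa, the digestive enzyme genes ela3l and prss1, the chaperone gene hspa8, the histone gene h3f3d and the processed transcript CR318588.4. Each had under 1% of its reads in introns, so removal of intron reads moved them up in rank.

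Heat shock genes were abundant in every library. The hsp70 copies hsp70l, hsp70.1, hsp70.2 and hsp70.3 encode the inducible chaperone of the HSP70 family, which is switched on by heat and other protein stress. Together they held 2.05%, 1.65%, 1.65%, 1.69% and 5.91% of total gene reads in 4AP control 1 to 5 and 3.50%, 2.35%, 2.44% and 4.60% in demyelination control 2 to 5. By total gene reads the level was high in 4AP control 5 and demyelination control 5 and low in the remaining 4AP controls. Introns held 21.6% to 42.1% of the reads of each copy. By exon reads the copies held 1.84%, 1.99%, 2.07%, 1.71% and 5.34% in 4AP control 1 to 5. In demyelination control 2 to 5 they held 2.53%, 1.75%, 1.77% and 3.94%. On exon reads 4AP control 1 to 4 were thus not set apart as low. hsp70l, on chromosome 8, led the copies by median rank with 4235 to 16946 CPM. These copies are similar in sequence, between 46.3% and 65.8% of their reads were unique, and how the rest were divided is uncertain.

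Of 101 heat shock and chaperone genes, 7 ranked in the top 500 of all libraries by total gene reads (6.93%), against a background of 1.09% of all genes. The constitutive chaperone gene hspa8 had 770 to 1853 CPM. The inducible hsp90aa1.2 had 161, 237, 137, 61.3 and 957 CPM in 4AP control 1 to 5 and 1127, 867, 819 and 1500 CPM in demyelination control 2 to 5. It was low in 4AP control 1 to 4 and high in the other libraries. The calcium pump gene atp2a1 of skeletal muscle spans hsp70.1, hsp70.2 and hsp70.3 on chromosome 3, and 92.6% of its own 933 to 3038 CPM came from introns. Whether these stem from the hsp70 copies was not tested.

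Cytosolic ribosomal protein genes formed the most evenly abundant class. Of 84 genes, 78 ranked in the top 500 of all 9 libraries (92.9%) by total gene reads and 80 by exon reads, against backgrounds of 1.09% and 1.42%. The class held 7.46% ± 1.13 of total gene reads (SD, n = 9), 7.53% to 8.72% in the 4AP controls and 5.99% to 7.48% in the demyelination controls. The members spread widely. The small subunit gene rps2 led with 2502 to 5112 CPM, while rps8b had a read in 1 library and rpl37_1 in 5. The large subunit gene rpl36 varied least, with 2126, 2226, 1985, 2194 and 2227 CPM in 4AP control 1 to 5 and 1961, 1933, 1965 and 2360 CPM in demyelination control 2 to 5, a 1.22-fold range. The other 5 of the 6 least variable genes with a median rank of 200 or better were rps7, rps29, rps4x, rplp0 and rpl23, all of this class.

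The mitochondrial genome held 12.5% ± 5.52 of total gene reads (SD, n = 9), and NC_002333.4 made up 82.9% of the class over all libraries. Its 13 protein-coding genes held 1.12% to 3.36%. The cytochrome c oxidase subunit gene mt-co2 led these with 3078, 1783, 2146, 2752 and 7889 CPM in 4AP control 1 to 5 and 5665, 5666, 6594 and 6497 CPM in demyelination control 2 to 5. It was low in 4AP control 1 to 4 and higher in all other libraries. Next by median rank came mt-cyb, of complex III, with 1793 to 5767 CPM, and mt-co3, also of cytochrome c oxidase, with 2006 to 3706 CPM. Of the 37 genes of this genome, 10 ranked in the top 500 of all libraries (27.0%), against 1.09% of all genes. Another 11 of the 37, all of them transfer RNA genes, had no read in any library.

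Nuclear genes of oxidative phosphorylation held less than the mitochondrial genome as a whole, but not always less than its 13 protein-coding genes. In 4AP control 2 to 4 the nuclear genes held 1.97%, 1.85% and 2.31%, against 1.12%, 1.34% and 1.81% for those 13. In every other library the nuclear genes held less than those 13. The 104 genes held 1.45% ± 0.586 of total gene reads (SD, n = 9), and 6 ranked in the top 500 of all libraries (5.77%), against 1.09% of all genes. The ATP synthase gene atp5mc3b led with 2012, 1844, 1882, 2139 and 517 CPM in 4AP control 1 to 5 and 509, 520, 582 and 609 CPM in demyelination control 2 to 5. 4AP control 5 lay with the demyelination controls here. The list as a whole showed the same split, with 1.85% to 2.31% in 4AP control 1 to 4, 1.00% in 4AP control 5 and 0.853% to 1.05% in demyelination control 2 to 5. Another mitochondrial gene, the adenine nucleotide carrier slc25a5, was in both top 100 sets with 1831 to 3009 CPM.

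Other housekeeping classes were smaller. Translation factors held 1.12% ± 0.186 of total gene reads, led by median rank by the elongation factor gene eef1a1l1, with 1230 to 1962 CPM, and by the initiation factor gene eif5a, with 635 to 1948 CPM. Cytoskeletal genes held 1.04% ± 0.261, led by median rank by beta-actin actb2, with 1248 to 3117 CPM, and the actin-severing cofilin cfl1, with 565 to 3364 CPM. Histones held 0.405% ± 0.0763, led by the replacement histone gene h3f3d, with 732 to 1429 CPM. Glycolysis genes held 0.224% ± 0.0350 and had 2 of 27 members in the top 500 of all libraries (7.41%, against 1.09% of all genes). The immediate early genes jun and fosab, which encode subunits of the AP-1 factor, had 491 to 953 CPM and 464 to 838 CPM and were in the top 500 of all libraries. The stress-induced atf3 had 43.3, 3.38, 14.1, 6.13 and 208 CPM in 4AP control 1 to 5 and 290, 256, 227 and 357 CPM in demyelination control 2 to 5. It was low in 4AP control 1 to 4 and higher in all other libraries, as hsp90aa1.2 was. Proliferation genes held a small share, 0.0344% ± 0.0111 of reads over 21 genes. Their median was 13.5 CPM, beside 18.4 CPM for the OPC identity list and 3.38 CPM for all genes with a read. None was in the top 500 of all libraries. At the 1.09% of all genes, a list of 21 genes would hold few or none. The replication clamp gene pcna had 17.6 to 90.9 CPM and mki67, a marker of cycling cells, had 0 to 39.0 CPM.

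**Figure D4:**
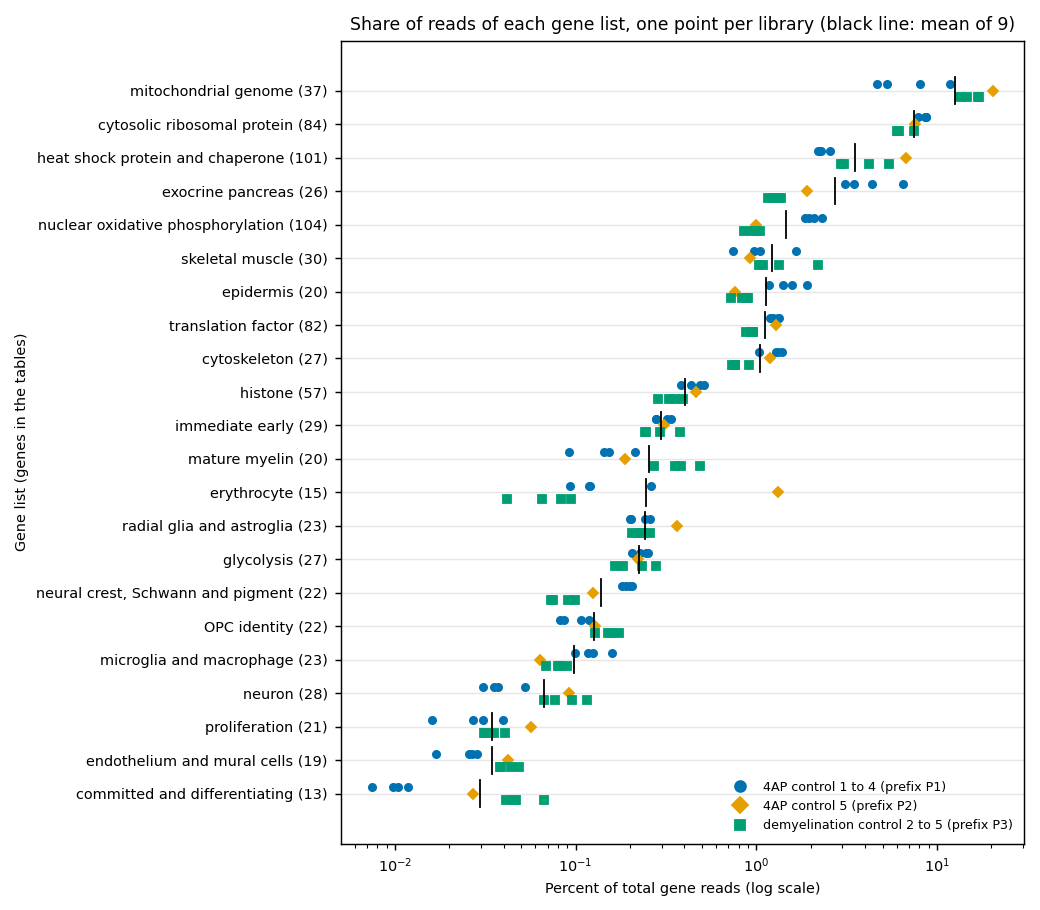
Points give the percent of total gene reads (log axis) held by each of 22 gene lists in each library, with the number of list genes in the tables in brackets, colours and shapes for the file prefixes and a black line at the mean of 9. The mitochondrial genome and ribosomal protein lists lie at the top with means of 12.5% and 7.46%, and OPC identity lies at 0.126%, below exocrine pancreas, skeletal muscle and epidermis.

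Genes of the oligodendrocyte lineage were measured across all stages but at a small share of reads. The 22 OPC identity genes all had a read in some library and 12 had one in every library, and they held 0.0822% to 0.175% of total gene reads. The guidance gene sema5a led them with 189 to 650 CPM, ahead of the transcription factor gene sox6 with a mean of 153 ± 77.4 CPM (SD, n = 9) and the proteoglycan gene vcanb with 44.1 to 303 CPM. Introns held 36.4% of the reads of sema5a, 48.6% of those of sox6 and 12.6% of those of vcanb. The median of the list was 18.4 CPM, beside 3.38 CPM for all 23672 genes with a read. Below pdgfra and olig2 came sox5 with 30.4 to 84.8 CPM and olig1 with 9.27 to 83.8 CPM. The proteoglycan gene cspg4, which encodes NG2, had 9.43 to 74.3 CPM, and 95.3% of its 64 reads lay in introns. Reads of gpr17, a receptor of cells that leave the precursor state, numbered 2 in all libraries.

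Genes of committed and differentiating cells were lowest. The 13 genes held 0.00744% to 0.0669% of total gene reads, and 3 were read in all 9 libraries. These were zeb2a with 4.72 to 215 CPM, the Wnt effector gene tcf7l2 with 18.4 to 198 CPM and myrf, the transcription factor that switches on myelin genes, with 16.9 to 99.1 CPM. Introns held 48.5% of the reads of zeb2a, 33.3% of those of tcf7l2 and 57.3% of those of myrf. They held 43.2% of the reads of the list. By exon reads the median gene of the list stood at 0 CPM, as did that of all genes with an exon read. The list stood at 0.00744% to 0.0117% in 4AP control 1 to 4, at 0.0272% in 4AP control 5 and at 0.0410% to 0.0669% in demyelination control 2 to 5.

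Mature myelin genes outweighed OPC identity genes in 9 of 9 libraries, by 1.12-fold to 3.07-fold in summed reads. The lists hold different kinds of genes, so the ratio of their sums does not give the proportion of cells at each stage. The list held 0.0921%, 0.144%, 0.153%, 0.214% and 0.188% of total gene reads in 4AP control 1 to 5 and 0.383%, 0.490%, 0.270% and 0.355% in demyelination control 2 to 5. The groups did not overlap. The second myelin basic protein gene mbpb led by median rank with 176 to 611 CPM, and its values overlapped between the groups. It was followed by cd59 with 136 to 743 CPM, the membrane glycoprotein gene gpm6ab with 15.5 to 446 CPM and cldnk, a claudin of zebrafish myelinating glia, with 130 to 727 CPM. The proteolipid gene plp1b had 39.0 to 512 CPM and mpz, a protein of central as well as peripheral myelin in fish, had a mean of 209 ± 185 CPM (SD, n = 9). No mature myelin gene ranked in the top 500 of all libraries by total gene reads, and 1 did by exon reads. Over all genes the shares were 1.09% and 1.42%, at which a list of this length would hold few or none.

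Transcripts typical of other tissues were more abundant than those of the lineage. The 55 lineage genes of the 3 lists together held 0.186% to 0.716% of total gene reads, with a median of 0.343%. The 26 exocrine pancreas genes held 3.48%, 6.45%, 4.36%, 3.12% and 1.91% in 4AP control 1 to 5 and 1.16%, 1.26%, 1.36% and 1.32% in demyelination control 2 to 5. They exceeded the lineage genes in 9 of 9 libraries, by 1.76-fold to 27.2-fold. Of the 26, 13 ranked in the top 500 of all libraries (50%), against 1.09% of all genes. The elastase gene ela2l had 8906, 15636, 9596, 6926 and 2874 CPM in the 4AP controls and 1689, 1817, 2037 and 1897 CPM in the demyelination controls. The groups did not overlap for ela2l, and the chymotrypsin gene listed as zgc:112160, the elastase gene ela2 and the trypsin-like prss59.2 followed it by median rank.

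Epidermal and muscle transcripts also exceeded the lineage genes in 9 of 9 libraries, at lower median ratios of 2.23 and 3.86 against 5.55 for exocrine pancreas. The 20 epidermis genes held 0.724% to 1.90% of total gene reads, 1.21-fold to 10.2-fold the lineage genes. Of these, 9 of 20 were in the top 500 of all libraries (45%), against 1.09% of all genes. The epidermis list includes pfn1, which is also counted in the cytoskeletal list. The keratin gene krt4 led with 4604, 3237, 3230, 2623 and 1716 CPM in 4AP control 1 to 5 and 1438, 1693, 1701 and 1628 CPM in demyelination control 2 to 5. The 30 skeletal muscle genes held 1.22% ± 0.450 (SD, n = 9), 1.44-fold to 4.85-fold the lineage genes, with 10 of 30 in the top 500 (33.3%, against the same 1.09%). The parvalbumin gene pvalb1, a calcium buffer of fast muscle, had 1173 to 3247 CPM and was high in 4AP control 4 and demyelination control 4. These 10 include atp2a1, whose reads were mostly intronic. Type I collagen col1a1a, with 1081 to 4070 CPM, and and2, an actinodin of the fin fold, with 992 to 3279 CPM, were in both top 100 sets.

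Erythrocyte genes were above the lineage genes in 2 of 9 libraries, 4AP control 2 and 4AP control 5. Their share was 0.0930%, 0.261%, 0.120%, 0.118% and 1.32% of total gene reads in 4AP control 1 to 5 and 0.0417% to 0.0948% in the demyelination controls. 4AP control 5 stood apart, and the mean over libraries of 0.244% became 0.110% without it. The embryonic globin genes hbae1.1 and hbae1.3_1 led the list, and 4 of its 15 genes, hbaa1, hbaa2, hbba2 and hbbe3, had no read.

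Markers of other cells of the nervous system and its vessels were below the 55 lineage genes together in most libraries, but not all were below the OPC identity list alone. Radial glia and astroglia genes exceeded that list in all 9 libraries, and the lists of microglia and of neural crest exceeded it in 4AP control 1 to 4. The 28 neuron genes held 0.0309% to 0.116%, and their defining markers differed in level. Of these, nefla had no read and gad1b had 0 to 9.10 CPM. By contrast, elavl4 and elavl3 had medians of 116 and 79.7 CPM, beside 107 CPM for olig2 and 109 CPM for pdgfra. Introns held 30.9% of the reads of elavl4 and 3.53% of those of elavl3. The leading neuron gene rbfox3a, at 108 to 500.2 CPM, had 94.9% of its reads in introns. The 23 microglia and macrophage genes held 0.0632% to 0.159%, of which apoeb, which glia also express, made up 80.9%. The defining microglial marker p2ry12 had 1 read in all libraries and mpeg1.1 had 12. Other members were higher: lcp1, coro1a and grn2 had medians of 34.5, 27.8 and 22.1 CPM, beside 18.4 CPM for sox10. The 19 endothelial and mural genes held 0.0169% to 0.0485%. Radial glia and astroglia genes held 0.243% ± 0.0504 (SD, n = 9), led by fabp7a with 512 to 1114 CPM, and exceeded the lineage genes in 3 of 9 libraries. Neural crest, Schwann and pigment genes held 0.0735% to 0.205%, of which pmp22a made up 67.9%. In this list gch2 had a median of 179 CPM, above those of olig2 and pdgfra, and pmp22b and tfap2a had 42.3 and 36.4 CPM. The part of cells or free RNA of other tissues in the profile was not tested.

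Of the precursor markers, olig2 and pdgfra thus had reads in every library, while sox10 was at or below the counting limit in several. The myelin gene mbpa had 37.1 to 123 CPM in the 4AP controls and 218 to 710 CPM in the demyelination controls. Beside the lineage genes stood larger shares of pancreas, epidermis and muscle transcripts. The ranges of the exocrine pancreas share did not overlap between the control groups, 1.91% to 6.45% in the 4AP controls and 1.16% to 1.36% in the demyelination controls. The lineage share ran the other way, 0.186% to 0.343% against 0.467% to 0.716%. Some housekeeping lists did not overlap either. The 4AP controls were higher for ribosomal proteins (7.53% to 8.72% against 5.99% to 7.48%) and translation factors (1.19% to 1.34% against 0.882% to 0.964%). They were also higher for cytoskeletal genes (1.03% to 1.38% against 0.732% to 0.915%). On exon reads the ribosomal protein ranges overlapped (9.44% to 13.8% against 9.85% to 11.4%). So did those of cytoskeletal genes (1.48% to 2.21% against 1.11% to 1.51%). Translation factors (1.54% to 1.99% against 1.27% to 1.32%) and exocrine pancreas (2.39% to 10.3% against 1.93% to 2.18%) still did not overlap. Nor did the lineage share (0.225% to 0.462% against 0.581% to 0.973%). With translation factors apart on both kinds of reads, lack of overlap does not set the pancreas and lineage shares apart. The demyelination control group and its file prefix cannot be told apart.

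Variation between libraries was uneven among abundant genes. Of 183 genes with a median rank of 200 or better by total gene reads, 42 varied less than 2-fold between the highest and lowest library, and 28 of these were ribosomal protein genes. These are 28 of the 56 ribosomal protein genes with such a rank. At the other end, 43 of the 183 varied more than 5-fold, and 20 of them had most of their reads in introns. How many of the 183 had most of their reads in introns was not counted, so the 20 do not link intron reads to variation. The widest was cntnap5b, of the contactin-associated family, with 2067, 5950, 8177, 5835 and 1107 CPM in 4AP control 1 to 5 and 99.1 to 152 CPM in demyelination control 2 to 5, an 82.5-fold range with 99.9% intron reads. It was followed by gramd1ba at 40.1-fold, CR927050.2 at 28.8-fold, hsp90aa1.2 at 24.5-fold, gpc6a at 24.2-fold and shcbp1 at 23.1-fold. Of these, hsp90aa1.2 had 32.7% intron reads and the others 99.6% to 100%.

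Over all genes with a read, the profiles of 4AP control 1 to 4 were most alike, and the demyelination controls and 4AP control 5 were not separated. Across 23672 genes, the median Pearson correlation of log2(CPM + 1) over all 36 pairs was 0.679. It was 0.779 among 4AP control 1 to 4, 0.691 among the demyelination controls and 0.596 between these sets. 4AP control 5 had a median of 0.698 with 4AP control 1 to 4 and 0.728 with the demyelination controls, so its median was higher with the demyelination controls than with its own group. Restricted to 2964 genes that averaged 10 or more reads, the medians were 0.807, 0.813 and 0.466 in the same order, with 0.630 and 0.703 for 4AP control 5. On these genes 4AP control 1 to 4 were no longer the most alike. Pairs of 4AP control 5 with the demyelination controls reached at most 0.738, and pairs among the demyelination controls were 0.788 or higher. The average was taken over raw reads, so 4AP control 5, with 897620 reads, weighed most in the choice of these genes. The gap of 4AP control 5 on this set cannot be told apart from that choice. These are correlations across genes, which are not independent replicates, and depth differs 8.16-fold between libraries.

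**Figure D5:**
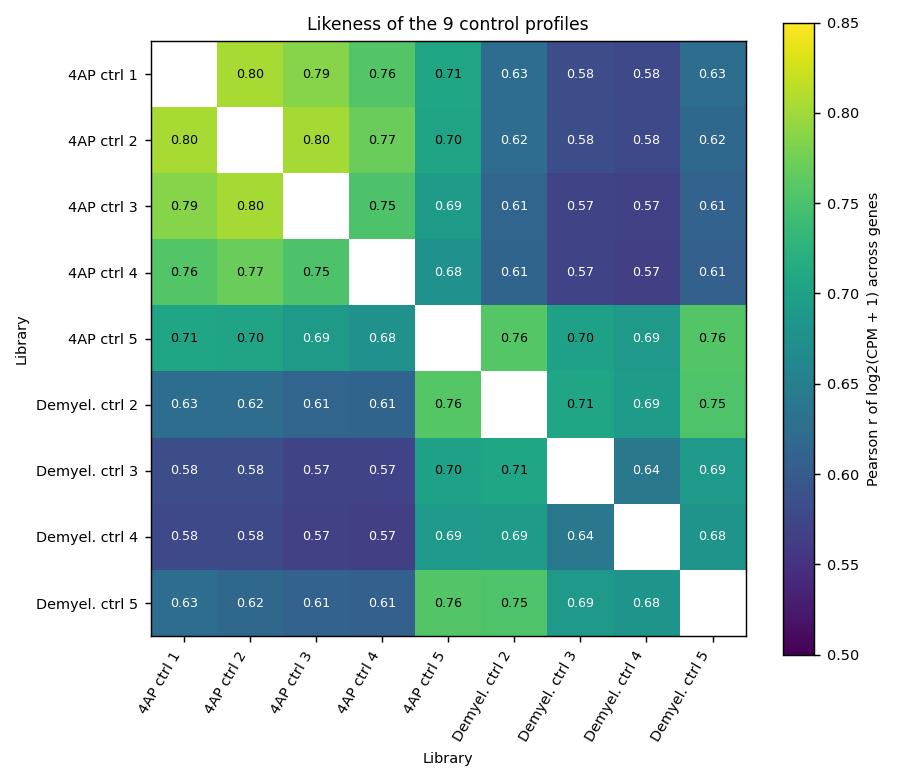
Colour and numbers give the Pearson correlation of log2(CPM + 1) of total gene reads across 23672 genes for each of the 36 pairs of control libraries. Pairs among 4AP control 1 to 4 reach 0.75 to 0.80, pairs between these and the demyelination controls lie at 0.57 to 0.63, and pairs among the demyelination controls lie at 0.64 to 0.75.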

How the data were processed

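RNA from sorted cells was extracted with a micro-scale column kit and made into 3' libraries from 1 ng or 4 ng of RNA, per the labels' protocols, which do not say which amount went into which library. The build was GRCz11, per the submitters' processing notes. The aligner, annotation release, strand of counting and collapsing of molecular identifiers are not given in the sources used here, so copies of 1 molecule may have been counted more than once.

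The deposited tables hold read counts per gene for 31743 genes, per the file headers. The column headed TPM, which the authors deposited, held CPM values that were not divided by length. Their denominator exceeded the sum of the exon reads, which came to 39.1% to 84.6% of it. This column served in 1 alternative only.

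CPM were computed from total gene reads and from exon reads, and genes were ranked within each library (Python 3.11.15, pandas 2.3.3). Gene lists were matched by symbol, also through a table of gene names that paired 28988 of 31743 identifiers. No groups were compared by a test, and Dixon's limit served only to mark single libraries. Values are given as mean ± SD over 9 libraries or as ranges. The genes named were the markers, the highest 15 genes of both top 100 sets, up to 4 members of each list, the 6 most and 6 least variable genes of median rank 200 or better, and the 6 genes that differed most between the rankings; other list members and genes at the edge of a set were named after their values were seen. The libraries, lists and this rule were chosen with earlier results of these data known. Alternatives covered the reads counted, depth, length, the denominator, TMM factors of edgeR 4.0.16, size factors of DESeq2 1.42.0, rank limits and each library left out. The ranking steps were tested on simulated libraries that were all drawn from the same mean profile. This checks the computation only, because the simulated libraries differed by counting error alone and the real ones differ more.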

Additional observations from a re-analysis of the deposited data

Results flagged for a closer look

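Of 54 groups of 4 or 5 values examined, 6 held a library whose gap to the nearest other library of its group passed Dixon's limit at 95%. Chance flags about 1 in 20 groups. 4 of the 6 lay in 4AP control 5, the deepest library and the only one with file prefix P2, which stood apart from the other 4AP controls in intron reads (20.5% of total gene reads), heat shock and chaperone genes (6.72%), erythrocyte genes (1.32%) and committed and differentiating genes (0.0272%). In demyelination control 5 the ribosomal protein genes held 7.48% of total gene reads, above the other demyelination controls. In demyelination control 3 the cytoskeletal genes held 0.915%, likewise above the others of its group.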

How the results depend on the processing

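No paired analysis was possible because the results come from no test. Of 194 alternative values for 13 main results, 174 were close to the main value. For a level or share, close means within 1 SD between libraries (or between pairs, for the correlation). For a count of genes it means within 1.5 times. All 90 values that left out 1 library were close. For a mean level or share this could not fail, because leaving out 1 library moves such a mean by less than 1 SD. Those passes are part of the 174 and do not show robustness. Of 400 alternative values for 39 other results, 364 were close. These include 171 omissions of 1 library for list shares, which likewise had to pass. Where the SD is large the limit of 1 SD is wide: sox10 at 7.47 CPM and mbpa at 77.2 CPM in 4AP control 1 to 4 alone count as close to 29.5 and 224 CPM. Likewise the committed list at 0.00984% in 4AP control 1 to 4 alone counts as close to 0.0296%. On exon reads, olig2 rose to a mean of 163.8 CPM and pdgfra to 156 CPM, and the shares became 19.2% for the mitochondrial genome, 11.6% for ribosomal proteins and 2.24% for nuclear oxidative phosphorylation, with 15 members of the last in the top 500. Per kilobase of exon these were 148, 37.9, 20.5%, 17.6% and 3.68%. A limit at rank 50 left 21 genes by total gene reads and 25 by exon reads, and a limit at rank 200 gave 97 and 114. With a limit at rank 1000, 21 oxidative phosphorylation genes counted. 4AP control 1 to 4 alone gave 78 top 100 genes and an oxidative phosphorylation share of 2.06%, and demyelination control 2 to 5 alone gave 72, where fewer libraries can only raise the count of genes. Between these sets sox10 stood at 7.47 and 48.1 CPM, mbpa at 77.2 and 398 CPM, the mitochondrial genome at 7.48% and 15.5% and the committed list at 0.00984% and 0.0500%. With the 1180 reads of demyelination control 1 put back, 30 genes by total and 38 by exon reads were in every top 100.

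Leaving out each library in turn gave mean CPM of 97.5 to 111 for olig2, 22.2 to 33.2 for sox10, 102 to 111 for pdgfra and 164 to 248 for mbpa. It gave 44 to 50 top 100 genes by total and 54 to 59 by exon reads, and shares of 11.5% to 13.5%, 7.30% to 7.64% and 1.35% to 1.53% for the mitochondrial genome, ribosomal proteins and oxidative phosphorylation. The median correlation was 0.606 to 0.688 in the same omissions and 0.542 with all libraries thinned to the smallest. A few reads decide the values of sox10, gpr17 and most markers of other cells of the nervous system. The level of sox10 was not ordered by depth across libraries. It had 0 to 18.4 CPM in 4AP control 1 to 4, at 163158 to 323598 total gene reads. In demyelination control 2 to 5 it had 18.2 to 88.3 CPM, at 109946 to 282966 reads. The reason was not tested.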
